A study of Homo sapiens with 6 samples.

Results

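The ERBB receptors and a set of their EGF-family ligands were examined in H1155 cells, a neuroendocrine large cell lung cancer line, by bulk RNA-Seq. The 10 genes were taken by name from the 58735 genes of the deposited count table, namely the receptors EGFR, ERBB2, ERBB3 and ERBB4 and the ligands EGF, TGFA, AREG, EREG, HBEGF and NRG1. Each name matched 1 gene. The table holds 3 libraries labelled WT, from wild-type H1155 cells, and 3 labelled GFI1-KO. The latter came from H1155 cells in which a pair of CRISPR/Cas9 guides was directed at the promoter region of GFI1. GFI1 is a zinc finger protein that acts in early hematopoiesis, mostly as a transcriptional repressor. All cells were untreated and grown with 10% FBS, so that serum growth factors were present in both groups. GFI1-KO cells had been sorted as monoclonal clones. The sources used here do not say how many clones the 3 libraries represent, or whether the libraries of a group came from separate cultures. P values therefore measure the spread between these libraries, which may be technical, and the effect of a clone cannot be told apart from that of the genotype.

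ERBB receptors are tyrosine kinases of the cell surface that pair when a ligand binds and signal through RAS and ERK, PI3K and AKT, and phospholipase C. EGFR binds EGF, TGFA and AREG, and both EGFR and ERBB4 bind EREG and HBEGF. The neuregulin NRG1 binds ERBB3 and ERBB4. ERBB2 has no known ligand of its own and serves as the preferred partner, whereas ERBB3 has a kinase domain of very weak activity. The ligands are made as membrane-anchored precursors that are cut free by proteases such as ADAM17. In lung cancer, EGFR and ERBB2 are known as mutated or amplified drivers and NRG1 as a fusion partner.

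Library totals lay between 14882914 and 17692882 counts. The level of GFI1 itself did not fall with the GFI1-KO label, with 157, 117 and 131 normalized counts in WT and 166, 178 and 159.99 in GFI1-KO. The log2 difference of 0.31 had an adjusted p of 0.0273 (edgeR, quasi-likelihood, adjusted by Benjamini-Hochberg), but of 0.0720 with DESeq2, and it was 0.17 (adjusted p = 0.238, edgeR) after the correction for GC content described below for ERBB2. Normalized counts are counts scaled to a common effective library size. Gene counts do not show where in GFI1 the reads lie, so this checks neither the deletion nor the protein. Each direction given below rests on the labels. Of 8 neuroendocrine markers, all were tested, 5 were higher and 3 lower. Over all tested genes, 36.5% were higher and 35.9% lower, and these shares also stand beside the next lists of markers. With the correction for GC content, 3 neuroendocrine markers were higher and 3 lower. Their median log2 fold change went from 0.39 to -0.04. The summed level of these markers, not corrected, was 425 to 435 FPKM in WT and 472 to 473 FPKM in GFI1-KO. FPKM is the count scaled by gene length and by the total of the library. Of 5 epithelial markers, 4 were tested, 1 was higher and 2 were lower, with sums of 41.5 to 44.4 FPKM in WT and 44.6 to 49.9 FPKM in GFI1-KO. The keratin genes KRT8 and KRT18 made up most of these sums, and the adhesion genes EPCAM and CDH1 were the lower ones, at -2.23 (adjusted p = 8.1e-08, edgeR) and -2.31 (adjusted p = 5.3e-05, edgeR) on the log2 scale. CDH1 had 10, 6 and 1 counts in GFI1-KO and passed the filter on low counts only through its WT libraries. Of 7 blood and endothelial markers, 2 were tested and 1 was lower. The leukocyte marker PTPRC and the T-cell marker CD3E had at most 3 counts over all 6 libraries together, and the list summed to 3.62 to 4.13 FPKM in WT and 1.92 to 2.18 FPKM in GFI1-KO. The endothelial marker PECAM1 averaged 455 ± 29.2 normalized counts across WT (SD, n = 3) against 209 ± 7.91 across GFI1-KO (SD, n = 3) and made up most of this sum. CDH5, the other one tested, was at 0.47 on the log2 scale (adjusted p = 0.176, edgeR). The part of these markers in the results below was not tested.

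GFI1 binds DNA through sites that contain the letters AATC. Windows from 250 bases before to 50 bases after the canonical start of each protein-coding gene were searched for AATC on both strands (GENCODE release 44, GRCh38/hg38). The motif is short, and 63.8% of 20038 windows held it. Among the 10 genes, the window of ERBB2 held 3 matches, those of ERBB3 and ERBB4 held 2 each, those of EGF, AREG, EREG and HBEGF held 1 each, and those of EGFR, TGFA and NRG1 held none. The longer form AAATCA was in none of the 10 windows and in 8.75% of all. A match is a description of letters and not a site of binding. The stretches around the 3 matches of ERBB2, the member with the most matches, are shown with AATC or its reverse complement GATT in capitals. They are read on the plus strand of chromosome 17, at chr17:39699814-39699843, chr17:39699975-39700004 and chr17:39700047-39700076. The canonical start used for the window lies inside the deposited span of the gene.
ERBB2, 248 bases before the start: ggGATTctccgaggaaaagtgtgagaacgg
ERBB2, 76 bases before the start: cgcgcttgctcccAATCacaggagaaggag
ERBB2, 4 bases before the start: gttgtgaagctgaGATTcccctccattggg
For TGFA, the gene with the largest change among the 7 members that could be tested, the 103 bases of the window that no annotated exon of the gene covers are shown from the minus strand (chr2:70553974-70554076). They lie before the canonical start but inside the deposited span of the gene, since a further transcript starts upstream of them. They are rich in G and C and hold no AATC.
TGFA: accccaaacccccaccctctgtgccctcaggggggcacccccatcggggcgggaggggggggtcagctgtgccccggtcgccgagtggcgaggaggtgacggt

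Receptor levels differed little between the groups. Among the ligand members, TGFA held a smaller share of their summed level and HBEGF and NRG1 held larger ones. TGFA fell 8.25-fold in the libraries labelled GFI1-KO, NRG1 rose 1.38-fold and ERBB2 rose 1.34-fold, whereas EGFR, ERBB3, EGF and HBEGF did not pass the threshold of an adjusted p of 0.05. Of the 10 genes, 7 passed the filter on low counts and were tested. ERBB4, AREG and EREG did not pass it. Among the 7 tested, 2 were higher and 1 was lower in GFI1-KO. Over all 17514 tested genes, 36.5% were higher and 35.9% were lower, 72.4% in either direction, so that a call was the usual result in this comparison and the number of calls among the members says little. With offsets for GC content and gene length, 1 member was higher (NRG1) and 2 were lower (TGFA and ERBB3), against 32.5% and 28.2% of all tested genes. WT and GFI1-KO libraries were fully separated in normalized counts for 3 of the 7, ERBB2, TGFA and NRG1, and for 74.4% of all tested genes. For 3 libraries against 3, the smallest p of an exact two-sided permutation test is 0.1, which each of these 3 genes reached.

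**Figure D1:**
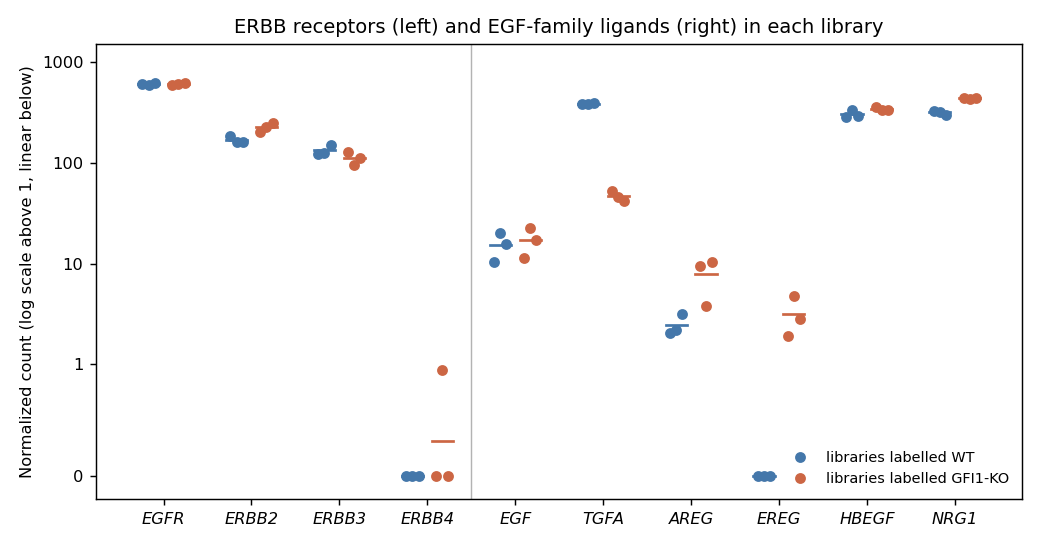
Normalized counts of the 4 ERBB receptors and 6 EGF-family ligands in each of the 6 libraries, on an axis that is logarithmic above 1 and linear below. Points are libraries and short lines are group means (n = 3). TGFA lies between 378 and 393 in WT and between 41.4 and 52.4 in GFI1-KO, whereas the EGFR points of both groups share 1 range.

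EGFR (ENSG00000146648, plus strand of chromosome 7, from 55019021 to 55211628) was the most abundant of the receptors. It had 603, 582 and 621 normalized counts in WT and 594, 606 and 611 in GFI1-KO. The values of the groups lay in the same range. EGFR had a log2 fold change of 0.00, with a 95% interval from -0.12 to 0.13 (adjusted p = 0.976, edgeR). Its antisense gene EGFR-AS1 had at most 6 counts in any library.

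ERBB2 (ENSG00000141736, plus strand of chromosome 17, from 39687914 to 39730426), the ligandless partner of the other receptors, had 182, 162 and 158 normalized counts in WT and 202, 226 and 248 in GFI1-KO. Every GFI1-KO library lay above every WT library. This gave a log2 fold change of 0.43 (SE 0.11, 95% interval 0.20 to 0.65, adjusted p = 9.98e-04, edgeR). Across genes, the log2 fold changes followed the GC content of transcripts (Spearman's rho = 0.574 over 17415 genes of the same 6 libraries), and the ERBB2 transcript has a GC content of 57.5%, against a median of 48.2% over tested genes. With offsets for GC content and gene length fitted to each library, the log2 fold change of ERBB2 was 0.05 (adjusted p = 0.679, edgeR). In the deposited coordinates ERBB2 also overlaps PGAP3 and MIEN1 on the opposite strand, whose log2 fold changes were 0.93 (adjusted p = 1.4e-07, edgeR) and 0.41 (adjusted p = 5.6e-06, edgeR), and the strand setting of the counting is not given in the sources used here. Their part in the counts of ERBB2 was not tested.

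ERBB3 (ENSG00000065361, plus strand of chromosome 12, from 56076799 to 56103505), the neuregulin receptor with the weak kinase, had 121, 125 and 150.1 normalized counts in WT and 129, 93.8 and 111 in GFI1-KO. The groups overlapped. Their difference on the log2 scale was -0.25 (95% interval -0.54 to 0.05, adjusted p = 0.121, edgeR). With the GC content and length offsets it was -0.37 (adjusted p = 0.0291, edgeR), and without the first GFI1-KO library it was -0.36 (adjusted p = 0.0481, edgeR), so that its call depended on these settings.

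ERBB4 (ENSG00000178568, minus strand of chromosome 2, from 211375717 to 212538841), the other neuregulin receptor, had 0 counts in every WT library and 0, 1 and 0 counts in GFI1-KO. Its level was at or under the floor of 3 counts over the 3 libraries of a group, which corresponds to 0.0643 CPM in WT and 0.0568 CPM in GFI1-KO. Such floors and the intervals of counts cover counting error only. No difference in ERBB4 was detectable at this depth.

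Set side by side per length, the receptors were led by EGFR. It had 2.92 ± 0.0951 FPKM across WT (SD, n = 3) and 2.89 ± 0.0445 FPKM across GFI1-KO (SD, n = 3). ERBB2 followed with 0.985 ± 0.0754 FPKM across WT (SD, n = 3) and 1.31 ± 0.133 FPKM across GFI1-KO (SD, n = 3). ERBB3 had 0.886 ± 0.107 FPKM (SD, n = 3) and 0.738 ± 0.115 FPKM (SD, n = 3). The order was the same in both groups, but ERBB2 and ERBB3 overlapped in WT and did not overlap in GFI1-KO. The summed level of the 4 receptors was 4.79 ± 0.170 FPKM across WT (SD, n = 3) and 4.94 ± 0.146 FPKM across GFI1-KO (SD, n = 3) and did not differ beyond the spread of the libraries (exact two-sided permutation test, p = 0.4). Of this sum, EGFR held 60.8%, 61.2% and 60.8% in WT and 58.4%, 59.95% and 57.4% in GFI1-KO. ERBB2 held 22.3%, 20.6% and 18.8% in WT and 24.1%, 27.1% and 28.2% in GFI1-KO. Every GFI1-KO library had a smaller share of EGFR and a larger share of ERBB2 than every WT library (p = 0.1 for each by the exact permutation test, two-sided, its smallest value). The shares depend on each other, since they add up to the whole, and the level of EGFR itself did not pass the threshold. They were not corrected for GC content. With the offsets for GC content and gene length, the log2 fold change of ERBB2 was 0.05 (adjusted p = 0.679, edgeR).

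**Figure D2:**
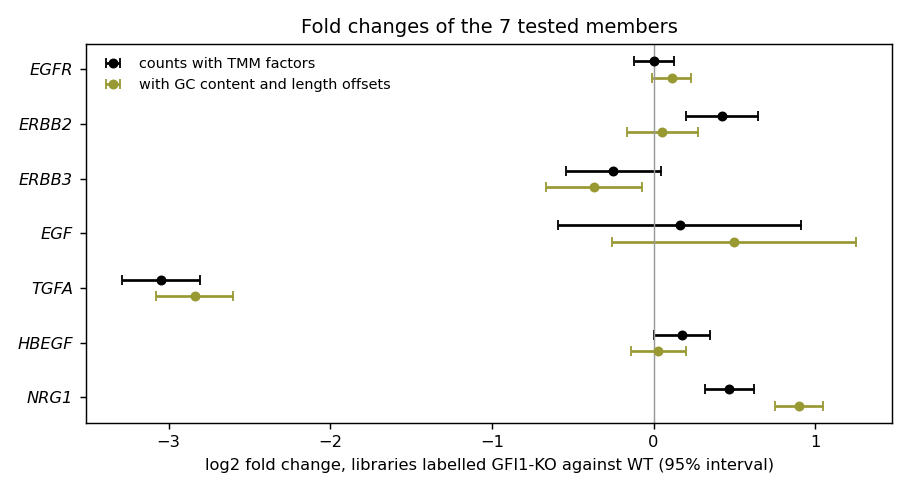
Log2 fold changes of the 7 tested members in the libraries labelled GFI1-KO against those labelled WT, with 95% intervals, from the counts with TMM factors (black) and with offsets for GC content and gene length (olive). TGFA stays near -3 and NRG1 above 0 in both, whereas ERBB2 moves from 0.43 to 0.05.

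Among the 4 ligand members tested, TGFA (ENSG00000163235, minus strand of chromosome 2, from 70447280 to 70554193), which encodes transforming growth factor alpha, an activator of EGFR that many carcinomas make for themselves, changed most. It had 378, 381 and 393 normalized counts in WT and 52.4, 45.5 and 41.4 in GFI1-KO. The lowest WT library was far above the highest GFI1-KO library, and the SDs within the groups were 7.79 and 5.56 normalized counts (n = 3 each). For TGFA the log2 fold change was -3.04 (SE 0.12, 95% interval -3.29 to -2.80, adjusted p = 5.5e-18, edgeR). Of the 17514 tested genes, 174 had a lower log2 fold change. It was -2.84 with the GC content and length offsets (adjusted p = 2.3e-16, edgeR) and stayed between -3.14 and -2.96 when each library was left out in turn. In RNA from whole cultures, fewer cells that express TGFA and less TGFA RNA per cell cannot be told apart. TGFA shares none of its 50-base words with other genes, and the intronic TGFA-IT1 on the same strand had no count.

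HBEGF (ENSG00000113070, minus strand of chromosome 5, from 140332843 to 140346631), the heparin-binding ligand of EGFR and ERBB4, had 281, 331 and 291 normalized counts in WT and 354, 335 and 329 in GFI1-KO. The second WT library lay above the third GFI1-KO library, and the groups overlapped there. The log2 fold change was 0.18 (95% interval 0.00 to 0.35, adjusted p = 0.0625, edgeR). Without the second WT library it was 0.24 and passed the threshold (adjusted p = 0.0208, edgeR), and with the GC content and length offsets it was 0.03 (adjusted p = 0.767, edgeR).

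NRG1 (ENSG00000157168, plus strand of chromosome 8, from 31639386 to 32767959), the neuregulin that binds ERBB3 and ERBB4, had 327, 321 and 296 normalized counts in WT and 439, 427 and 440.4 in GFI1-KO. All GFI1-KO libraries were higher than all WT libraries. The rise was 0.47 on the log2 scale (SE 0.08, 95% interval 0.32 to 0.62, adjusted p = 3.5e-06, edgeR). The NRG1 transcript has a GC content of 41.2%, below the median, and with the GC content and length offsets the log2 fold change was 0.90 (adjusted p = 1.1e-10, edgeR). NRG1 has many transcripts with different starts and ends, which gene counts do not separate. The NRG1-IT1 gene inside it had at most 14 counts in any library. Of its 50-base words, NRG1 shares 1.13% with other genes, and ERBB3, EREG and ERBB2 share 0.727%, 0.300% and 0.129% of theirs. The part of such reads in the counts was not tested.

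EGF (ENSG00000138798, plus strand of chromosome 4, from 109912884 to 110012266), the ligand that gave the family its name, was near the lower end of what could be tested. It had 10.2, 19.9 and 15.7 normalized counts in WT and 11.4, 22.7 and 16.9 in GFI1-KO. The groups overlapped, and the log2 fold change was 0.16 with a 95% interval from -0.59 to 0.92 (adjusted p = 0.701, edgeR). This interval is wide, and it holds both a fall and a rise.

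AREG (ENSG00000109321), which encodes the EGFR ligand amphiregulin, had 2, 2 and 3 counts in WT and 10, 4 and 11 counts in GFI1-KO. Each GFI1-KO library had a higher normalized count than each WT library, but AREG was under the filter on low counts. Over the groups, 7 counts of 46678372 stood against 25 of 52780330, a ratio of 3.16 with a 95% exact counting interval from 1.33 to 8.65 that compares these libraries only. Fitted without a filter, AREG differed by 1.64 on the log2 scale (adjusted p = 0.0549, edgeR).

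EREG (ENSG00000124882), which encodes epiregulin, had no count in WT and 2, 5 and 3 counts in GFI1-KO. For EREG, the 10 counts over the GFI1-KO group against the floor of 3 counts over the WT group gave a CPM ratio of 2.95. This ratio leaves out the counting error of the 10 counts and is not a lower bound. The adjusted p without a filter was 0.0229 (edgeR), at levels that remain close to the floor. AREG and EREG lie side by side on the plus strand of chromosome 4, from 74445134 to 74455009 and from 74365143 to 74388751. The same region holds the EGFR ligand genes EPGN, from 74308473 to 74315307, and BTC, from 74744759 to 74794686. EPGN, which encodes epigen, had no count in any of the 6 libraries. BTC, which encodes betacellulin, averaged 16.0 ± 5.08 normalized counts over the WT libraries (SD, n = 3) and 10.7 ± 2.03 over those of GFI1-KO (SD, n = 3, log2 fold change -0.56, adjusted p = 0.191, edgeR). These neighbouring genes thus had low counts throughout, with more counts of AREG and EREG but not of BTC or EPGN in GFI1-KO.

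Per length, HBEGF led the ligand members in both groups. It had 6.05 ± 0.538 FPKM across WT (SD, n = 3) and 6.75 ± 0.258 FPKM across GFI1-KO (SD, n = 3). In WT it was followed by TGFA with 4.69 ± 0.0971 FPKM (SD, n = 3) and NRG1 with 1.69 ± 0.0868 FPKM (SD, n = 3), with no overlap between neighbours in this order. In GFI1-KO the places of TGFA and NRG1 were exchanged, with 2.31 ± 0.0383 FPKM (SD, n = 3) for NRG1 and 0.561 ± 0.0668 FPKM (SD, n = 3) for TGFA. EGF and AREG overlapped in each group, with means between 0.0910 and 0.287 FPKM, and EREG came last. This order leaves out NRG2, a further neuregulin described below. NRG2 had 2.60 ± 0.106 FPKM across WT (SD, n = 3) and 2.87 ± 0.162 FPKM across GFI1-KO (SD, n = 3). These means lay above those of NRG1 in both groups.

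The summed level of the 6 ligands was 12.2, 13.3 and 12.5 FPKM in WT and 10.5, 9.88 and 9.96 FPKM in GFI1-KO. Every GFI1-KO library lay below every WT library, and the ratio of the means was 0.798 (p = 0.1 by the exact permutation test, two-sided, its smallest value). For the 5 of these members that bind EGFR, all but NRG1, the sums were 11.0 ± 0.583 FPKM across WT (SD, n = 3) and 7.80 ± 0.308 FPKM across GFI1-KO (SD, n = 3). Their ratio was 0.710 (p = 0.1 from the same exact test). TGFA alone went from a mean of 4.69 FPKM in WT to 0.561 FPKM in GFI1-KO, a larger fall than that of either sum. The other ligand members each had a higher mean FPKM in GFI1-KO, though HBEGF and EGF did not pass the threshold. These sums, and the ligand shares below, were not corrected for GC content.

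TGFA held 37.9%, 35.0% and 38.4% of the summed level of these ligand members in WT and 6.04%, 5.57% and 5.03% in GFI1-KO. HBEGF held 46.3%, 50.002% and 46.8% in WT and 67.2%, 67.4% and 65.8% in GFI1-KO. NRG1 held 14.4%, 12.9% and 12.7% in WT and 22.2%, 22.9% and 23.4% in GFI1-KO. For all 3 the groups did not overlap (p = 0.1 for each by the exact permutation test, two-sided, its smallest value). The shares of HBEGF and NRG1 depend on that of TGFA, since shares add up to the whole. HBEGF took up a larger share without passing the threshold for its own level. The sizes depend on the division by gene length. In shares of CPM, the mean gain was 10.4 percentage points for HBEGF and 20.3 for NRG1, in place of 19.1 and 9.53.

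**Figure D3:**
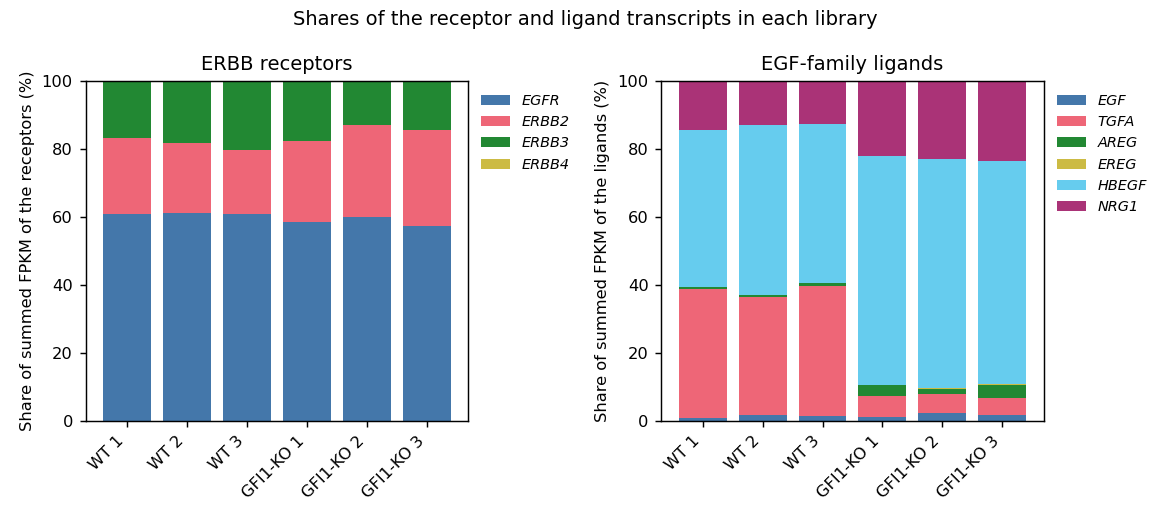
Share of each receptor in the summed FPKM of the 4 receptors (left) and of each ligand in that of the 6 ligands (right), 1 bar per library. TGFA takes 35.0% to 38.4% of the ligand sum in the WT libraries and 5.03% to 6.04% in the GFI1-KO libraries, whereas ERBB2 takes 18.8% to 22.3% of the receptor sum in WT and 24.1% to 28.2% in GFI1-KO.

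The other neuregulins were measured as well. NRG3, a ligand of ERBB4 found mainly in the nervous system, had 45.1, 29.9 and 38.8 normalized counts in WT and 0, 0 and 0.941 in GFI1-KO. It was nearly absent from all GFI1-KO libraries. Over the groups, 108 counts stood against 1, a WT to GFI1-KO ratio of 122 with a 95% exact counting interval from 21.5 to 4868, and NRG3 fell at an adjusted p of 5.1e-10 (edgeR). NRG3 passed the filter on low counts only through its WT libraries, where it was high. Its adjusted p therefore adds no support beyond the counts themselves. NRG4, another ERBB4 ligand, had 32.8, 38.7 and 14.7 normalized counts in WT and 7.62, 21.8 and 12.2 in GFI1-KO. The third WT library lay inside the range of GFI1-KO. NRG4 was lower by a log2 fold change of -1.04 (adjusted p = 0.0174, edgeR), which was -0.50 with the GC content and length offsets (adjusted p = 0.28, edgeR), and with 1 library left out it missed the threshold in 4 of 6 fits (adjusted p = 0.0700 without WT 1, 0.101 without WT 2, 0.109 without GFI1-KO 1 and 0.0566 without GFI1-KO 3, edgeR). NRG4 overlaps FBXO22 on the opposite strand, which had up to 1204 counts in a library and fell by 0.51 on the log2 scale (adjusted p = 1.4e-09, edgeR). The part of FBXO22 reads in NRG4 was not tested. NRG2 had 195, 185 and 200.5 normalized counts in WT and 202, 223 and 223 in GFI1-KO. On the log2 scale NRG2 differed by 0.16 (adjusted p = 0.153, edgeR), which turned to -0.44 (adjusted p = 4.3e-04, edgeR) with the GC content and length offsets.

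Of 5 genes that process the ligands, all were tested, 2 were higher and 1 was lower, against 36.5% and 35.9% of all tested genes. The list had a median of 0.56 on the log2 scale (4.95e-04 over all tested genes). FURIN, a proprotein convertase that activates ADAM proteases, rose from a WT mean of 686 ± 24.1 normalized counts (SD, n = 3) to a GFI1-KO mean of 1269 ± 65.7 (SD, n = 3, adjusted p = 7.5e-14, edgeR). Its log2 fold change was 0.89, and 0.29 with the offsets (adjusted p = 4.4e-05, edgeR). RHBDF2, which encodes a partner of ADAM17, rose from a WT mean of 356 ± 16.4 normalized counts (SD, n = 3) to a GFI1-KO mean of 523 ± 31.96 (SD, n = 3, adjusted p = 1.6e-07, edgeR), but not with the GC content and length offsets (log2 fold change -0.04, adjusted p = 0.655, edgeR). ADAM17, the protease that sheds TGFA, AREG and HBEGF, fell by 0.20 on the log2 scale (adjusted p = 1.5e-04, edgeR), and was at 0.36 with the offsets (adjusted p = 3.2e-08, edgeR).

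Of 9 genes that attenuate the receptors, 8 were tested, 3 were higher and 4 lower (median log2 fold change -0.04). The shares over all tested genes were 36.5% and 35.9%. ERRFI1, an inhibitor of the EGFR kinase that is itself induced by EGFR signaling, rose from a WT mean of 3199 ± 119 normalized counts (SD, n = 3) to a GFI1-KO mean of 5557 ± 94.8 (SD, n = 3). This was 0.80 on the log2 scale (adjusted p = 7.2e-17, edgeR) and 1.02 with the offsets. LRIG3 stood at 0.38 on the log2 scale (adjusted p = 0.0280, edgeR, but 0.0725 with DESeq2), and at 0.51 with the offsets (adjusted p = 0.00606, edgeR). SOCS4 (-0.59) and CBLB (-0.42), which act in the degradation of EGFR, were lower (adjusted p = 2.8e-13 and 5.3e-04, edgeR). With the offsets, SOCS4 and CBLB had log2 fold changes of 0.08 (adjusted p = 0.0523, edgeR) and 0.07 (adjusted p = 0.539, edgeR), and the lowest value in the list was -0.03.

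Of 16 adaptors and effectors, 14 were tested, 5 were higher and 8 lower (median log2 fold change -0.20), against 36.5% and 35.9% of all tested genes. SHC1, an adaptor that links the receptors to GRB2 and RAS, had the largest change, from a WT mean of 701 ± 41.8 normalized counts (SD, n = 3) to a GFI1-KO mean of 1901 ± 52.7 (SD, n = 3), or 1.44 on the log2 scale (adjusted p = 6.3e-19, edgeR) and 1.04 with the offsets. PIK3CA, the catalytic subunit of PI3K, the docking protein GAB1 and the RAS exchange factor SOS1 were lower, with log2 fold changes of -0.83, -0.81 and -0.79 (adjusted p = 5.5e-14, 4.0e-09 and 9.5e-13, edgeR), and of -0.17, -0.23 and -0.34 with the offsets.

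Of 20 genes that respond to ERK activity, all were tested, 7 were higher and 9 lower (median log2 fold change 0.01). Over all tested genes, these shares were 36.5% and 35.9%. With the GC content and length offsets, 5 were higher and 10 lower (median log2 fold change -0.14), against 32.5% and 28.2% of all tested genes. Some genes of the list changed direction with the offsets and passed the threshold both ways. The members with the largest changes went both ways. FOSL1, an AP-1 subunit, rose from a WT mean of 7.07 ± 3.40 normalized counts (SD, n = 3) to a GFI1-KO mean of 38.5 ± 4.996 (SD, n = 3), or by 2.43 on the log2 scale (adjusted p = 1.0e-06, edgeR). The ephrin receptor EPHA4 fell from a WT mean of 127 ± 13.9 normalized counts (SD, n = 3) to a GFI1-KO mean of 4.10 ± 1.09 (SD, n = 3), at -4.91 on the log2 scale (adjusted p = 1.1e-14, edgeR). SPRY1, a feedback inhibitor of receptor tyrosine kinases, fell by 1.75 on the log2 scale (adjusted p = 5.6e-05, edgeR), and the ETS factor ETV1 fell by 1.16 (adjusted p = 5.8e-19, edgeR). With the offsets, each of these 4 had the same direction and passed the threshold, and ETV1 was at -0.55. FOSL1 and EPHA4 passed the filter on low counts only through the group in which each was higher. RNA levels do not measure the activity of the receptors or of ERK.

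**Figure D4:**
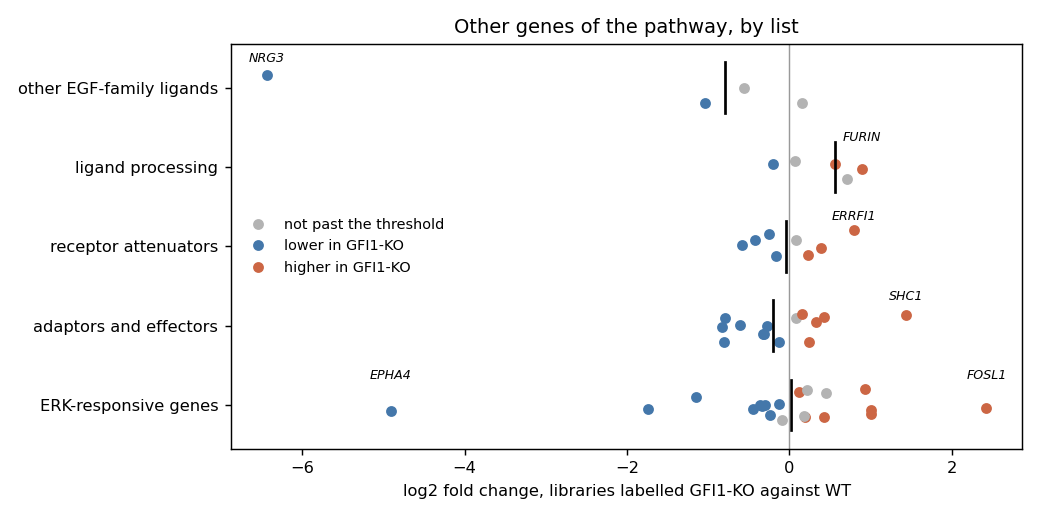
Log2 fold changes of the tested genes of 5 pathway lists in the libraries labelled GFI1-KO against those labelled WT, with 1 point per gene colored by its call at an adjusted p of 0.05 (edgeR) and a black line at the median of each list. Higher and lower genes occur together in 4 of the lists, and NRG3 and EPHA4 lie farthest to the left, at -6.44 and -4.91.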

How the data were processed

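Poly-T beads were used by the authors to select mRNA. Their methods name Hisat2 (GRCh38/hg38) for alignment and featureCounts for counting, whereas the submitters' processing notes name Bowtie2 and HTSeq. The authors deposited raw counts per gene and library, with each gene's coordinates and length. The annotation release, strand setting and rule for multi-mapped reads are not given in the sources used here. Gene identifiers of the 10 members matched GENCODE release 44 at overlapping coordinates.

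Counts of all genes were tested with edgeR 4.0.16 in R 4.3.3 (TMM factors, filterByExpr, quasi-likelihood F test, Benjamini-Hochberg adjustment over 17514 genes, threshold 0.05). For normalized counts, each library was scaled by its TMM-adjusted size to the mean of these sizes. FPKM was computed from counts, deposited length and library totals. The alternatives were DESeq2 1.42.0, limma-voom (limma 3.58.1), median-of-ratios and upper-quartile factors, no filter, at least 10 counts in every library, offsets for GC content and length (natural splines with 5 degrees of freedom), the replicate number as a block, and each library left out. The edgeR step was tested on simulated data, where it recovered most changed genes but more of its calls were false than the threshold allows. The simulation changed 200 of 17174 genes, whereas 72.4% of tested genes were called in the data. Its share of false calls therefore does not carry over to these data.

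Named genes were GFI1, the members, the other ligands of the family and, in each further list, up to 4 called genes with the largest change. PECAM1, CDH5, PTPRC, CD3E, EPCAM, CDH1, KRT8 and KRT18 were named after their values were seen. Some marker results are not reported here. Members and lists were chosen with earlier results of these data known.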

Additional observations from a re-analysis of the deposited data

How the results depend on the processing

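TGFA was lower and NRG1 higher in GFI1-KO, each past the threshold, under all 15 alternatives run. With the offsets for GC content and length, 1 member was higher and 2 were lower, alone and together with the replicate block, since ERBB2 was at 0.05 and ERBB3 at -0.37. These offsets left 0 lower genes of ligand processing and 0 lower receptor attenuators, with or without the block (edgeR, adjusted p of at most 0.05, and also 0 at an unadjusted p under 0.05), against 1 and 4 with DESeq2 without offsets. Higher with the offsets were 3 genes of ligand processing and 4 receptor attenuators, against 2 and 3 with edgeR without offsets. The log2 fold change of GFI1 was 0.31 with DESeq2 (adjusted p = 0.072), 0.27 with upper-quartile factors (adjusted p = 0.0545), 0.17 with the offsets (adjusted p = 0.238) and 0.18 with the offsets and the block (adjusted p = 0.239). That of EGFR was -0.0027 with DESeq2, -0.0028 with median-of-ratios factors, -0.040 with upper-quartile factors and -0.0017 with at least 10 counts in every library. NRG2 turned to -0.44 with the offsets and to -0.44 with the offsets and the block. A minimum of 10 counts in every library left 0 lower genes among the other ligands, as it removes all of them but NRG2, and also 0 at an unadjusted p under 0.05, against 2 with DESeq2. Without division by gene length, the share of ligands rose by 10.4 percentage points for HBEGF and by 20.3 for NRG1, where it had been 19.1 and 9.53. The causes were not tested.

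With each library left out in turn, 2 to 3 members were higher and 1 to 2 lower, and 1 to 2 other ligands were lower. A further member was higher without WT 2 (HBEGF) or without WT 3 (AREG), and ERBB3 was lower without GFI1-KO 1. AREG, untested in the main fit, passed the filter without WT 3 only through its GFI1-KO libraries, where it is high. Its call in that fit is therefore no separate evidence of a difference. In these fits GFI1 lay between 0.21 and 0.43. It was short of the threshold without WT 2 (adjusted p = 0.147), WT 3 (0.0633) or GFI1-KO 2 (0.0927, edgeR). EGFR lay between -0.028 and 0.017 and EGF between -0.10 and 0.38. Libraries that share only a replicate number did not deviate together (r from -0.00617 to 0.0213 over 3 pairs) and were not paired, and the replicate block alone gave 12573 differing genes against 12680 and changed no call of a member or other ligand (NRG1 0.47, ERBB2 0.42, TGFA -3.04). Depth limits EGF, AREG, EREG and ERBB4, which had at most 54 counts over a group.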
